A study of Mus musculus with 6 samples.

Results

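The genes of bile acid synthesis and feedback were 10 genes of the mouse liver, taken by symbol: Cyp7a1, Cyp8b1, Cyp27a1, Cyp7b1, Akr1d1, Hsd3b7, Baat, Nr0b2, Abcb11 and Slc10a1. All 10 were on the array, with 1 probe each, out of 16887 named genes and 19517 features in all. Liver RNA of single C57BL/6 mice aged 7 weeks was hybridised against pooled liver RNA of 6 mice on a 2-colour array. The pool came from mice on standard chow given oral vehicle, and every other mouse ate a diet rich in fat and cholesterol (HFC) for 12 days. From day 5 the HFC group received oral vehicle once daily per the series' design (the labels of these samples do not name it), the lovastatin group 30 mg/kg of the HMG-CoA reductase inhibitor lovastatin, and the fenofibrate group 100 mg/kg of the PPARα agonist fenofibrate. Each group had 2 arrays of separate mice. The dye of the mouse was Cy5 in the HFC and lovastatin groups and Cy3 in the fenofibrate group, with the pool in the other dye.

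Bile acids are made from cholesterol in hepatocytes. In the classic pathway Cyp7a1 takes the first, rate-limiting step, and in the acidic pathway Cyp27a1 and Cyp7b1 act first. Bile acids returning from the gut activate the receptor FXR, which induces Nr0b2 (SHP), a repressor of Cyp7a1 and Cyp8b1, and Abcb11, the pump that moves bile acids into bile.

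Each value is read as the log2 of the ratio of the mouse to the chow pool, though the log base is not stated. On this scale 0 is the level of the pool, 1 is a doubling and -1 a halving. The direction, mouse over pool, is likely and not stated: channel 1 of each sample is the mouse per the labels, and Acot1, a PPARα target, was at 3.76 and 4.05 on the fenofibrate arrays against 1.48 to 2.48 on the others. Pairs of arrays with opposite dye orientation correlated positively over all probes (0.0569 to 0.316). The files hold ratios only, so the levels of genes cannot be compared with each other, and the tissue could not be checked by the level of liver markers. Since these are ratios of whole tissue, fewer cells of a type and less RNA per cell cannot be told apart.

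The second HFC array has displaced values. In 4 of its 8 column blocks the values did not follow those of the other arrays (r = -0.0344 to 0.0278) until they were moved along the row by a fixed step (r = 0.237 to 0.256). None of the remaining 44 blocks, over all 6 arrays, was shifted (0 of 44). The displaced spots, 50.3% of the probes, were left out of the fits and are given separately as "put back". They include 4 of the 10 genes (Nr0b2, Slc10a1, Akr1d1 and Hsd3b7), which therefore have 1 HFC array and 5 arrays in all. The first lovastatin array also stood apart: its ratios had an SD of 1.09, against 0.419 to 0.725 on the others, and 7 of 11 acute phase and inflammation genes lay above 1.5 there, against 0 or 1 on each of the other arrays. For the lovastatin mice the labels conflict, with lovastatin in the titles and fenofibrate at 100 mg/kg in the treatment field. The titles were used for the drug. They give no dose, so the 30 mg/kg stated above also differs from the treatment field. The median of 8 PPARα targets was 0.90 and 0.865 on the lovastatin arrays, against 2.25 and 2.06 on the fenofibrate arrays and 0.73 on the first HFC array. On the second HFC array it was -0.015 with displaced spots left out and 0.565 put back. These medians do not show that lovastatin was given.

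Upstream sequences are shown for the 3 genes that hold a match to a motif of a factor of the feedback loop, since these genes lay on opposite sides of the chow pool. RefSeq windows (GRCm38.p6) matched 7 of the 10 genes, all but Cyp7a1, Cyp7b1 and Baat. Each sequence below ends at the base before the gene's start and runs 5′ to 3′ on the gene's strand, with matches in capitals: the Cyp8b1 sequence at chr9:121916306-121916555 (minus strand), the Nr0b2 sequence at chr4:133553126-133553375 (plus strand) and the Abcb11 sequence at chr2:69342617-69342866 (minus strand).
Cyp8b1: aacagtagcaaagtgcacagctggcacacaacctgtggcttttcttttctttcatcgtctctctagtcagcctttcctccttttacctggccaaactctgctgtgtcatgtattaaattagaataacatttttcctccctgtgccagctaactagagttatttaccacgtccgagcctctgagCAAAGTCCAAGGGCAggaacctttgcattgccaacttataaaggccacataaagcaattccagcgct
Nr0b2: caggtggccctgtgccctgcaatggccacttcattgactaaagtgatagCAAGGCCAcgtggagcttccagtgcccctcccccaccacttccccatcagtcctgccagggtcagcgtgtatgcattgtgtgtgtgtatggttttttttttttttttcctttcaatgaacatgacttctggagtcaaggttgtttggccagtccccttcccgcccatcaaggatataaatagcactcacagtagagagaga
Abcb11: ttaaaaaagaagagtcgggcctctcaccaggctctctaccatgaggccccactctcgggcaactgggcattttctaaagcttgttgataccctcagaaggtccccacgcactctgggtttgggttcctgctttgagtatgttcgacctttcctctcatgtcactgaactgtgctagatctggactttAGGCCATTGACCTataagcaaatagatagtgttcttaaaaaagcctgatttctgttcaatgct

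Both strands were searched for 3 motifs. The NR5A2 (LRH-1) motif CAAGGNCA lay at -60 to -53 from the start of Cyp8b1 and at -201 to -194 from that of Nr0b2, and 5.53% of 32851 upstream windows of the same length held it. The HNF4A motif CAAAGTCCA lay at -67 to -59 in Cyp8b1, overlapping the NR5A2 match, and 0.384% of the windows held it. The FXR inverted repeat AGGTCANTGACCT, with 1 mismatch allowed, lay at -63 to -51 in Abcb11 as AGGCCATTGACCT, and 0.0791% of the windows held such a match. A match describes the letters and not a bound site, and a window without one lacks only these letters.

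Across the 3 diet groups the gene of the first step of the classic pathway and that of the 12α-hydroxylase were far below the chow pool, while the feedback repressor and the export pump were above it. The dye-balanced comparison sets the diet-fed mice against the pool with equal weight for each dye orientation. Since the fenofibrate mice alone carry Cy3, their group has 50% of the weight and the HFC and lovastatin groups 25% each, so the value is no estimate of the diet without a drug. In it Cyp7a1 was lower by 4.27-fold and Cyp8b1 by 7.19-fold, and both passed limma's test (adjusted p = 0.0119 and 0.00794). These 2 of 10 compare with 0.397% of 19413 features called lower, and 0 of 10 with 0.17% called higher. The median difference over the 10 genes was -0.31 on the log2 scale, against 0.01 over all features tested, and the median absolute difference was 0.657 against 0.165. In the HFC group alone the mean was 2.90-fold lower for Cyp7a1 and 6.43-fold lower for Cyp8b1, without passing the test. A ratio against the pool leaves out the spread between chow mice, which were measured as 1 pool.

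**Figure D1:**
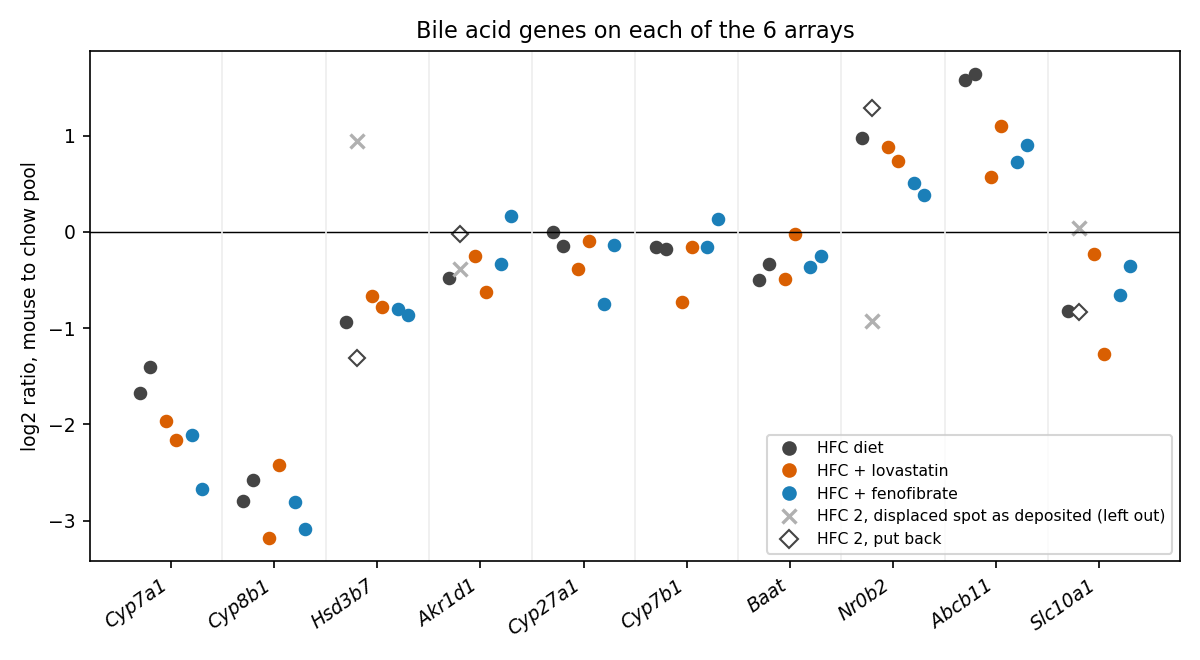
Log2 ratio of mouse to chow pool (vertical axis) of the 10 genes on each array, coloured by group, with 2 points a group in replicate order. Cyp7a1 and Cyp8b1 lie at or below -1.40 on all 6 arrays and Abcb11 at or above 0.57. Crosses are displaced values of the second HFC array, which were left out, and open diamonds the same spots put back.

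Cyp7a1 (Entrez Gene 13122) encodes cholesterol 7α-hydroxylase. Its log2 ratio was -1.67 and -1.40 on the HFC arrays, -1.96 and -2.16 on the lovastatin arrays, and -2.11 and -2.67 on the fenofibrate arrays. All 6 mice were below the pool, and both HFC mice were above all 4 drug-treated mice. The group means were -1.54 ± 0.19 (SD, n = 2) on HFC, -2.06 ± 0.14 with lovastatin and -2.39 ± 0.40 with fenofibrate, which leaves 34.5%, 24.0% and 19.1% of the pool's level. The dye-balanced log2 difference was -2.09 (SE 0.131, 95% interval -2.42 to -1.76).

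Cyp8b1 (Entrez Gene 13124) encodes sterol 12α-hydroxylase, which directs synthesis to cholic acid. It stood at -2.79 and -2.58 on the HFC arrays, at -3.18 and -2.42 with lovastatin, and at -2.81 and -3.09 with fenofibrate. The lovastatin mice spanned the values of both other groups, and the fenofibrate mice were just below the HFC mice. Its dye-balanced log2 difference of -2.85 (SE 0.148, 95% interval -3.22 to -2.47) was the 13th lowest of the 19413 features, where Cyp7a1 was the 32nd lowest.

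Hsd3b7 (Entrez Gene 101502) encodes the 3β-hydroxysteroid dehydrogenase that follows the 7α-hydroxylases in both pathways. It was at -0.94 on the first HFC array, at -0.67 and -0.78 with lovastatin, and at -0.80 and -0.86 with fenofibrate. These 5 values lay within a narrow range below 0, and both fenofibrate mice were below both lovastatin mice. The second HFC array held 0.94 at this spot as deposited and -1.31 once put back. The dye-balanced log2 difference was -0.83 (SE 0.120, adjusted p = 0.112 by limma), and with the displaced spots put back -0.88 (adjusted p = 0.0396), which passed.

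Akr1d1 (Entrez Gene 208665), the 5β-reductase that shapes the steroid ring of all bile acids, was at -0.48 on the first HFC array, at -0.25 and -0.62 with lovastatin, and at -0.33 and 0.17 with fenofibrate. The groups overlapped, and 1 of 5 mice was above the pool. Put back, the second HFC mouse stood at -0.02. Its dye-balanced log2 difference was -0.27 (95% interval -0.68 to 0.14, adjusted p = 0.629 by limma).

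The genes of the first steps of the acidic pathway lay nearer to the pool than Cyp7a1 and Cyp8b1. Cyp27a1 (Entrez Gene 104086), the mitochondrial sterol hydroxylase, was at 0.00 and -0.15 on HFC, at -0.39 and -0.09 with lovastatin, and at -0.75 and -0.14 with fenofibrate. Cyp7b1 (Entrez Gene 13123), the oxysterol 7α-hydroxylase, was at -0.16 and -0.18 on HFC, at -0.73 and -0.16 with lovastatin, and at -0.16 and 0.13 with fenofibrate. For both genes the 3 groups overlapped and most values were near the pool. The dye-balanced log2 differences were -0.30 (95% interval -0.64 to 0.04, adjusted p = 0.511 by limma) and -0.16 (-0.49 to 0.17, adjusted p = 0.726). Neither interval overlaps that of Cyp7a1 or Cyp8b1, though the differences between genes were not tested.

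Baat (Entrez Gene 12012), which joins bile acids to taurine or glycine, was at -0.50 and -0.33 on HFC, at -0.49 and -0.02 with lovastatin, and at -0.36 and -0.25 with fenofibrate. Every mouse was below the pool and the groups overlapped. Its dye-balanced log2 difference was -0.32 (95% interval -0.62 to -0.02, adjusted p = 0.432 by limma).

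Nr0b2 (Entrez Gene 23957), the repressor SHP, was at 0.98 on the first HFC array, at 0.88 and 0.74 with lovastatin, and at 0.51 and 0.38 with fenofibrate. The 5 mice were above the pool, with the HFC mouse highest and both fenofibrate mice lowest. The second HFC array held -0.93 as deposited and 1.29 once put back. The dye-balanced log2 difference was 0.67 (SE 0.122) and did not pass limma's test either with these spots left out (adjusted p = 0.174) or put back (adjusted p = 0.0663).

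Abcb11 (Entrez Gene 27413), the bile salt export pump, was at 1.58 and 1.64 on HFC, at 0.57 and 1.10 with lovastatin, and at 0.73 and 0.90 with fenofibrate. All 6 mice were above the pool, and both HFC mice, which lay close together, were above all 4 drug-treated mice. The dye-balanced log2 difference was 1.02 (SE 0.124, 95% interval 0.71 to 1.33), which is 2.03-fold, where the HFC group alone was at 3.05-fold. It just missed limma's threshold (adjusted p = 0.0513) and passed with the displaced spots put back (adjusted p = 0.0343), where its own values are the same and only the adjustment over all features and the shared spread differ.

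Slc10a1 (Entrez Gene 20493), the NTCP carrier that takes bile acids up from blood, was at -0.82 on the first HFC array, at -0.23 and -1.27 with lovastatin, and at -0.66 and -0.35 with fenofibrate. All 5 mice were below the pool, and the lovastatin mice spanned the whole range. The second HFC array held 0.04 as deposited and -0.83 once put back. The dye-balanced log2 difference was -0.65 (SE 0.209, adjusted p = 0.397 by limma).

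By sign alone, 5 of the 10 genes (Cyp7a1, Cyp8b1, Slc10a1, Baat and Hsd3b7) were below 0 on every array used, against 7.11% of 18795 features. Both Nr0b2 and Abcb11 (2 of 10) were above 0 on every array used, against 7.32%. The dye-balanced calls depended on which array was left out. Both Cyp7a1 and Cyp8b1 lost their call without the first HFC array (adjusted p = 0.0778 and 0.0529 by limma), without the first fenofibrate array (0.279 for both) and without the second (0.387 and 0.381), and Cyp7a1 also without the second HFC array (0.057). Leaving out the first lovastatin array gave 3 called genes of the 10 and leaving out the second gave 4. The log2 difference itself stayed between -2.23 and -1.95 for Cyp7a1 and between -2.94 and -2.75 for Cyp8b1 over 13 other settings.

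**Figure D2:**
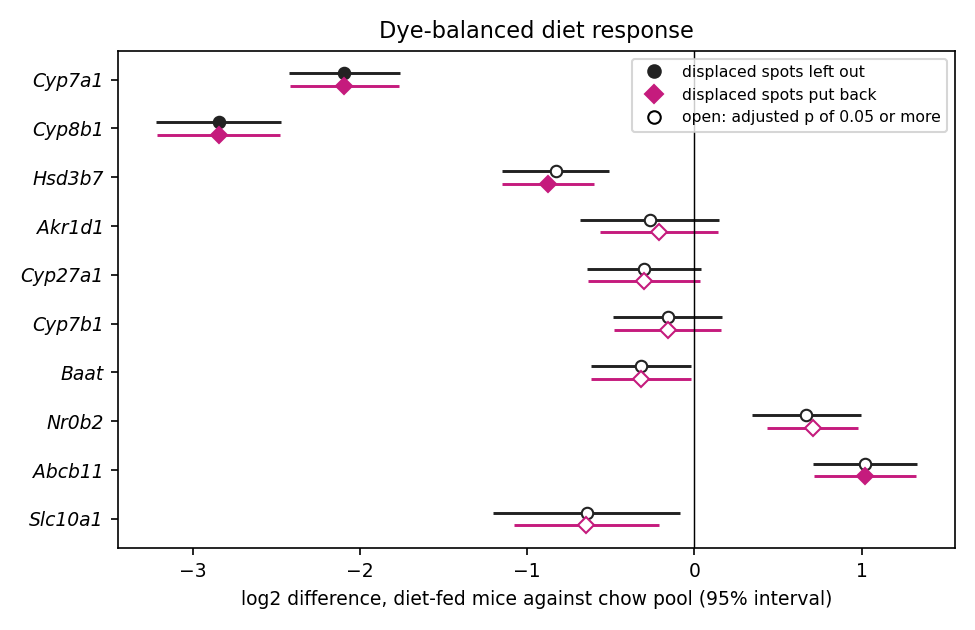
Dye-balanced log2 difference of diet-fed mice from the chow pool (horizontal axis) for the 10 genes, with 95% intervals, with displaced spots left out (black) or put back (magenta). Filled symbols passed an adjusted p of 0.05. Cyp7a1 and Cyp8b1 passed in both fits, and Abcb11 and Hsd3b7 when the spots were put back.

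Taken one group at a time, the low values of Cyp7a1 and Cyp8b1 were present in each group, and with 2 arrays a group none of the 10 genes passed. HFC alone against the pool gave 0% of 19444 features called (0 by limma, with 913 at an unadjusted p under 0.05), and Cyp7a1 had an adjusted p of 0.304 and Cyp8b1 of 0.172. Lovastatin against the pool gave 0% of 19450 (2051 at an unadjusted p under 0.05), with adjusted p = 0.13 for Cyp7a1 and 0.12 for Cyp8b1. Fenofibrate against the pool gave 0.0618% of 19427 features, with adjusted p = 0.0734 for Cyp7a1 and 0.0539 for Cyp8b1. These last values passed with the displaced spots put back (0.0422 and 0.0322). Within a group the mouse always has the same dye, so a dye effect of a probe cannot be told apart from the diet there.

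The drug comparisons ask whether lovastatin or fenofibrate changed these genes beyond the diet. None of the 10 genes passed in any of them. Lovastatin against HFC gave 0% of 19439 features called (0 by limma, 381 at an unadjusted p under 0.05), fenofibrate against HFC 0% of 19418 (551) and fenofibrate against lovastatin 0% of 19422 (1067). The first pair of comparisons share the HFC mice. The median 95% interval over all features reached 1.03, 1.02 and 0.912 log2 units on either side. These intervals are not adjusted for the number of features. The adjusted test needs larger differences still, so drug effects above 2-fold can also go uncalled.

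Cyp7a1 and Abcb11 had the lowest differences from HFC under both drugs. For Cyp7a1 the log2 difference was -0.53 with lovastatin (95% interval -1.29 to 0.24, adjusted p = 0.973 by limma) and -0.86 with fenofibrate (-1.62 to -0.09, adjusted p = 1). For Abcb11 it was -0.78 with lovastatin (-1.49 to -0.06, adjusted p = 0.973 by limma) and -0.80 with fenofibrate (-1.51 to -0.08, adjusted p = 1). The synthesis gene and the pump gene, which lay on opposite sides of the pool, were thus both lowest relative to HFC in drug-treated mice, without passing the adjusted test. With fenofibrate the mice also carry the other dye, which cannot be told apart from the drug in that comparison.

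Cyp8b1 differed from HFC by -0.12 with lovastatin (95% interval -0.98 to 0.75) and by -0.27 with fenofibrate (-1.13 to 0.60). Nr0b2 differed by -0.17 (-1.03 to 0.69) and -0.54 (-1.40 to 0.33), with 1 HFC array. These intervals reach from below to above 0, so neither direction was resolved. With quantile normalization the lovastatin difference became 0.148 for Cyp7a1 and 0.532 for Cyp8b1 and the fenofibrate difference of Cyp8b1 0.151, and without the first lovastatin array the lovastatin difference of Cyp8b1 was 0.265. Of the 6 genes with both HFC arrays, Cyp7a1 and Abcb11 did not overlap between lovastatin and HFC, both lower (2 of 6, against 18.1% of 9792 features lower and 12.9% higher). Between fenofibrate and HFC, Cyp7a1, Cyp8b1 and Abcb11 did not overlap, all lower (3 of 6, against 20.3% of 9871 features lower and 19.3% higher). Between the 2 drugs, Nr0b2 and Hsd3b7 were lower with fenofibrate in both mice (2 of 10, a share near the background of 20.2% of 18803 features lower and 20.1% higher). The fenofibrate minus lovastatin difference was -0.37 for Nr0b2 (95% interval -1.07 to 0.34) and -0.02 for Abcb11 (-0.74 to 0.70).

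**Figure D3:**
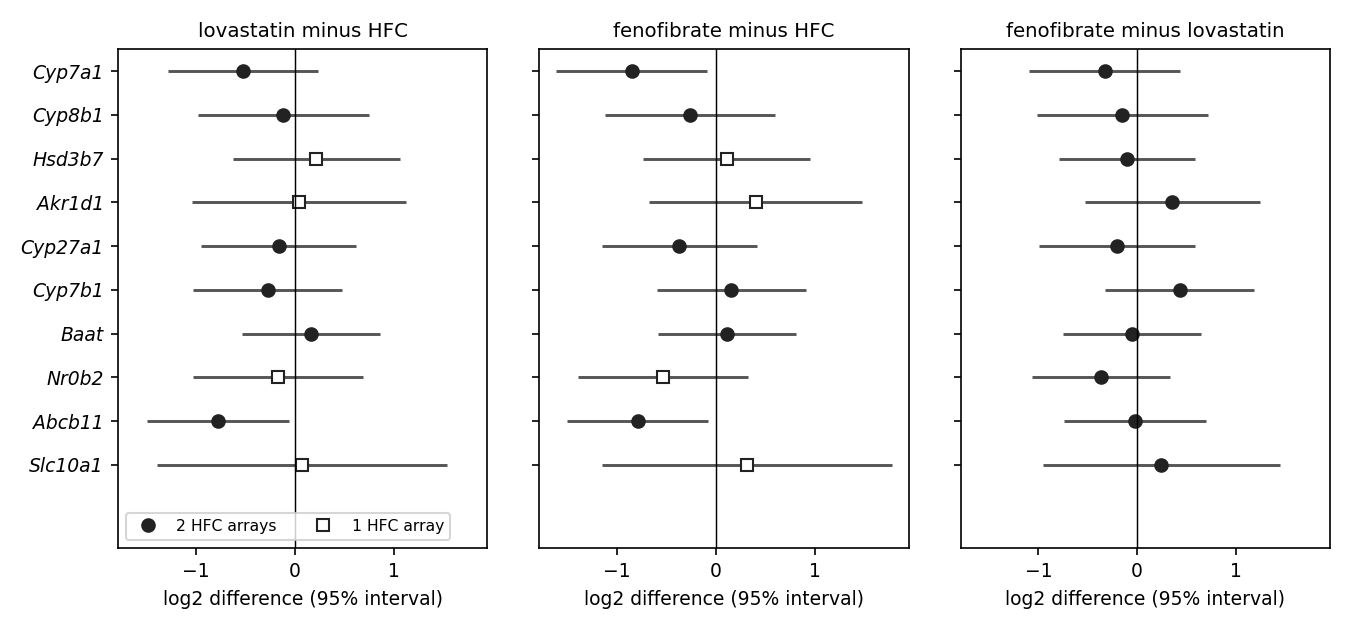
Log2 differences between groups (horizontal axis, 95% intervals) for the 10 genes in the 3 drug comparisons. Open squares mark genes with 1 HFC array. The intervals of Abcb11 lie below 0 for both drugs against HFC and that of Cyp7a1 for fenofibrate, and no gene passed the adjusted test.

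The genes with the values nearest to Cyp7a1 and Cyp8b1 were found by the root mean square difference of log2 ratios over the 5 arrays other than the second HFC array, among 16362 genes. Nearest to Cyp7a1 were Pmvk (0.213), Hsd17b7 (0.300), Slc22a7 (0.335), Enho (0.342) and Tm7sf2 (0.345). Pmvk, Hsd17b7 and Tm7sf2 encode enzymes of cholesterol synthesis, Slc22a7 an organic anion transporter and Enho the peptide adropin. Nearest to Cyp8b1 were Rdh11 (0.304), Dhcr7 (0.343), Acss2 (0.471), Sult1e1 (0.475) and Tafa2 (0.529). Dhcr7 encodes the last reductase of cholesterol synthesis and Acss2 makes acetyl-CoA from acetate. Cyp7a1 and Cyp8b1 were 0.834 apart.

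Other genes of the pathway were read from lists. Among 11 transporters of bile acids and bile lipids, 1 rose, 0 fell, and the median dye-balanced log2 difference was 0.48, with 8 of 11 above 0. The gene that rose was Abcg5, a subunit of the sterol exporter into bile, which lay at 1.26 and 1.33 on HFC, 1.45 and 1.07 with lovastatin and 1.58 and 1.05 with fenofibrate (1.30, SE 0.132, adjusted p = 0.0351 by limma). For Abcg5 all 6 mice were above the pool and the groups overlapped. Abcg8, the other subunit gene, was at 0.48 (adjusted p = 0.554 by limma), with values of -0.01 to 1.18. Abcb4, the phosphatidylcholine flippase of the canalicular membrane, had a difference of 0.72 (adjusted p = 0.0804 by limma), and its values of 0.50 to 0.99 were all above 0.

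Slco1b2, an uptake carrier of the sinusoidal membrane like Slc10a1, had a difference of -0.62 (adjusted p = 0.111 by limma) and was below 0 on all 6 arrays. The uptake carriers Slco1a1 and Slco1a4 were at -1.11 and 0.18 and the exporter gene Slc51a at -0.12. Their values varied widely. Slco1a1 (SE 0.48) ran from -2.63 on the first lovastatin array to 0.16 on the second. Slco1a4 ran from -0.59 to 0.70, and Slc51a from -0.49 to 1.12, the highest on the first lovastatin array. Of the same list, Abcc2, Abcc3 and Abcc4 were at 0.49, 0.62 and 0.485 and above 0 on every array used. Atp8b1 was at 0.44, and none of these genes was called.

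Of 8 genes of side chain oxidation and activation, 0 passed in the dye-balanced comparison, and 7 were above 0 (median 0.31). By group, the median against the pool was 0.095 on HFC alone (5 of 8 above 0). It was 0.18 with lovastatin (5 of 8) and 0.55 with fenofibrate (7 of 8). Slc27a5, which activates bile acids to their CoA form before Baat, had the only dye-balanced value below 0 (-0.76, adjusted p = 0.16 by limma). Hsd17b4, a peroxisomal enzyme of side chain shortening, was at 0.68 (adjusted p = 0.163). Of 4 other sterol hydroxylases 0 passed (dye-balanced median -0.43). Their median was 0.095 on HFC alone (2 of 4 above 0), -0.53 with lovastatin and -0.64 with fenofibrate. Cyp2c70, which makes the muricholic acids of mice, was below 0 on all 6 arrays (-0.76, adjusted p = 0.144 by limma). Ch25h, another cholesterol hydroxylase, was at -0.56 (adjusted p = 0.486). This gene was above the pool on the HFC arrays (0.42 and 0.12) and below it with lovastatin (-1.70 and -0.25) and fenofibrate (-1.11 and -0.44).

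Of 14 nuclear receptors and feedback regulators 0 passed, and the dye-balanced median was -0.10. On HFC alone the median was 0.145 (8 of 14 above 0). Nr1h4, the gene of FXR itself, was at -0.31 (adjusted p = 0.487 by limma). Nr1i2, the xenobiotic receptor PXR, was at 0.75 (adjusted p = 0.143) and the coactivator gene Ppargc1a at -0.56 (adjusted p = 0.295).

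**Figure D4:**
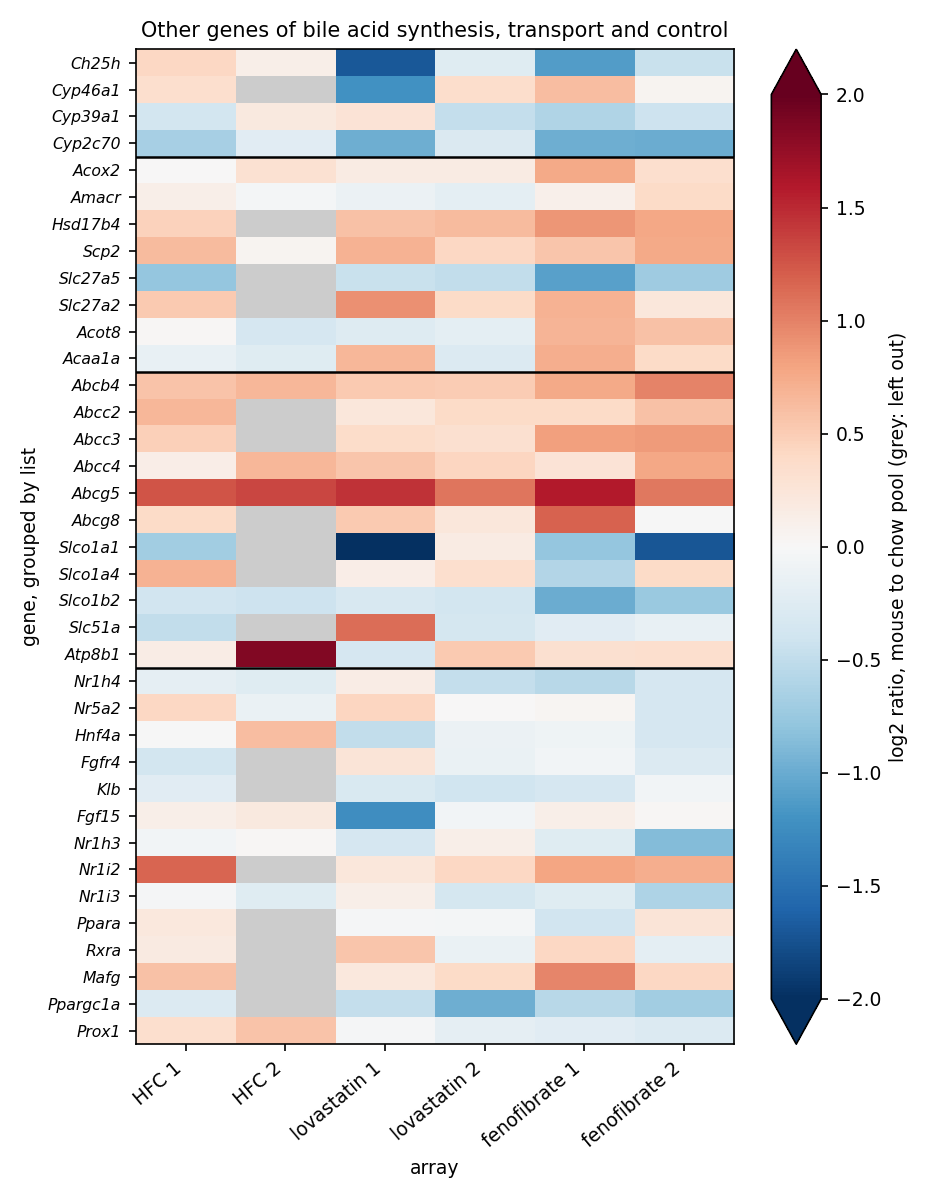
Log2 ratio of mouse to chow pool (colour, limited to -2 to 2) of the other pathway genes on the 6 arrays, in 4 lists separated by lines, with displaced spots of the second HFC array in grey. Abcg5 is above 1 on all 6 arrays, and Cyp2c70, Slco1b2 and, on 5 arrays, Slc27a5 are below 0.

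Several marker lists are given beside these values. Of 6 hepatocyte markers, 5 were below 0 in the dye-balanced comparison (median -0.69) and 0 passed by limma, with 5 at an unadjusted p under 0.05. The list's median per array ran from -0.93 to -0.36. Tat was at -1.06 (adjusted p = 0.0992 by limma) and Ttr at -0.98 (adjusted p = 0.0815), while Apob, the only marker above 0, was at 0.18. Slc10a1, Hsd3b7, Baat, Akr1d1, Cyp27a1 and Cyp7b1 lay within the range of these markers. Cyp7a1 and Cyp8b1 lay below it, and Nr0b2 and Abcb11 above it. The list medians were 0.03 for 6 cholangiocyte, -0.24 for 6 Kupffer cell, -0.10 for 6 stellate cell, -0.06 for 5 endothelial cell and -0.24 for 5 lymphocyte markers, with 0 called in each. Their part in the results on the bile acid genes was not tested.

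Cyp7a1 follows the time of day, so genes of the circadian clock were read as well. Of 13 clock genes, both core genes such as Arntl and Clock and output genes such as Dbp, 0 passed. Their median was -0.18, with 9 below 0. Per1 was at -0.76 (adjusted p = 0.188 by limma) and Dbp at -0.88 (adjusted p = 0.215). Dbp ranged from -1.78 on the first HFC array to 0.07 on the second fenofibrate array.

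Inflammatory signals also lower Cyp7a1 and Slc10a1. Of 11 acute phase and inflammation genes 0 passed in the dye-balanced comparison (median -0.08). Socs3, a feedback inhibitor of cytokine signalling, was above 0 on all 6 arrays (1.04, adjusted p = 0.176 by limma), and the cytokine gene Il1b was below 0 on all 6 (-0.90, adjusted p = 0.152). On the first lovastatin array their median was 1.71, against -0.57 to -0.12 on the other arrays, with Socs3 at 1.56 and Il1b at -0.75. On that array Cyp7a1 was at -1.96 and Slc10a1 at -0.23, the latter the highest of the 5 values used. The part of clock and inflammation genes in the results was not tested.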

How the data were processed

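Liver RNA of 6 mice was measured, 2 in each of 3 groups; per the labels every array is a different mouse. The authors deposited a log ratio for each spot, read here as log2. The log base is not stated. A control value of -9.71 exceeds what scanner signals allow on a log10 scale (4.82). That value does not tell log2 from the natural log, so all folds and percentages rest on the reading as log2. How the scans were background-corrected and normalized is not given in the sources used here. No intensities were used, so dim probes stayed in, and precision is limited by the number of arrays.

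Of 22575 spots, 726 had no value and 561 repeated control spots were left out, leaving 21288 probes. The platform annotation gives 1 symbol for 18658 and several for 30. Probes of a gene were averaged (1247 genes), and 2630 unnamed probes stayed single. In the second HFC array, 10703 probes in displaced blocks were set to missing; putting a block back is an estimate for the block as a whole and did not suit every spot (Lss read 0.20, against -2.38 to -1.35 elsewhere).

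Group means of all 6 arrays were fitted with limma 3.58.1 in R 4.3.3 (prior degrees of freedom 2.38), which gave 7 comparisons, each adjusted by Benjamini-Hochberg over all features at 0.05. The fit was tested on simulated data. Other steps used Python 3.11.15 with pandas 2.3.3, numpy 2.4.6 and matplotlib 3.10.9. The alternatives were the displaced spots as deposited or put back, median centring, quantile normalization, single probes, array weights, a replicate block and leaving out each array.

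The members and lists were chosen with earlier results of these data known. Named were all 10 members; from each list up to 4 genes past the threshold, otherwise the 2 with the smallest p in the dye-balanced comparison (the cell marker lists other than hepatocyte are given as medians); and the 5 genes nearest to Cyp7a1 and to Cyp8b1. Outside this rule, Nr1h4 was named for its role. Named after their values were seen were Abcb4, Abcc2, Abcc3, Abcc4, Abcg8, Atp8b1, Slco1a1, Slco1a4, Slco1b2, Slc51a, Slc10a2, Apob, Lss, Vil1 and Cela1.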

Additional observations from a re-analysis of the deposited data

How the results depend on the processing

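Of the alternative values of single genes, 841 kept their direction and side of the threshold, 20 came to pass, 9 no longer passed and 24 changed sign, all of the last in uncalled comparisons. Features called in the dye-balanced comparison numbered 110, against 67 with displaced spots as deposited, 191 put back, 196 after quantile normalization, 230 with array weights and 0 to 962 without 1 array (962 without the second lovastatin array). Among the 10 genes 2 were called, against 4 with the spots put back and 0 to 4 without 1 array. HFC against the pool went from 0 to 5 features put back and 9 with quantile normalization (1 of the 10 genes, Cyp8b1), and 0 to 6 without 1 array (0 to 1 of the 10 genes). Lovastatin against the pool went from 0 to 2 put back, 4 with quantile normalization and 0 to 3953 without 1 array (0 to 2 of the 10 genes). Fenofibrate against the pool went from 12 to 32 put back (2 of the 10 genes), 0 with single probes, 111 with array weights (2 of the 10 genes) and 0 to 26 without 1 array (0 to 2 of the 10 genes); quantile normalization called 1 of the 10 genes. Without 1 array, lovastatin against HFC gave 0 to 1381 features and fenofibrate against lovastatin 0 to 2205, the highest without the second lovastatin array, when the first stands alone in its group and is assumed to vary like the others. Fenofibrate against HFC gave 0 throughout.

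With the replicate number as a block, 0 features and 0 of the 10 genes were called in the dye-balanced comparison (Cyp7a1 adjusted p = 0.064, Cyp8b1 0.0525) and 0 features for fenofibrate against the pool. Same-numbered arrays did not deviate together over all probes (r = -0.0277, 0.0117 and 0.0319). This measure showed no pairing of the mice by number, but it cannot exclude one that touches fewer genes.

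With displaced spots as deposited, lovastatin against HFC changed sign for Nr0b2 (0.785), Slc10a1 (-0.36) and Hsd3b7 (-0.725), and fenofibrate against HFC for Nr0b2 (0.42), Slc10a1 (-0.115) and Hsd3b7 (-0.83), from the foreign values at these spots. Put back, lovastatin against HFC was -0.185 for Akr1d1. With quantile normalization lovastatin against HFC was 0.148 for Cyp7a1 and 0.532 for Cyp8b1, and fenofibrate against HFC 0.151 for Cyp8b1; the cause was not tested.

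Without 1 array, lovastatin against HFC ran from -0.495 to 0.265 for Cyp8b1, -0.56 to 0.01 for Cyp7b1, -0.45 to 0.59 for Slc10a1, -0.14 to 0.23 for Akr1d1 and -0.075 to 0.395 for Baat. Fenofibrate against lovastatin ran from -0.53 to 0.23 for Cyp8b1, -0.285 to 0.245 for Abcb11, -0.275 to 0.765 for Slc10a1, -0.285 to 0.185 for Baat and -0.51 to 0.10 for Cyp27a1. Fenofibrate against the pool ran from -0.16 to 0.13 for Cyp7b1 and -0.33 to 0.17 for Akr1d1.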

Other observations

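Of 5 measured targets of SREBP2, the activator of cholesterol synthesis, 4 fell in the dye-balanced comparison (Sqle to -3.81, Fdps to -3.48, Hmgcs1 to -3.37 and Idi1 to -4.57 on the log2 scale, each with an adjusted p of 0.00833 or less by limma), and Lss was at -1.82 (adjusted p = 0.0695). Of 8 PPARα targets 4 rose (Acot1 by 2.89, Cyp4a14 by 2.23, Cyp4a31 by 1.91 and Cyp4a10 by 1.29). The fenofibrate group has 50% of the weight in these values. In HFC alone against the pool these genes were at 1.98, 1.28, 0.59 and 0.52 in the same order, and none of the 8 passed.

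Of the 3 genes of an enterocyte and pancreas list, Fabp2, an intestinal fatty acid binding protein, rose by 2.01 on the log2 scale (adjusted p = 0.00833 by limma), with values of 1.35 to 2.58 on the 6 arrays, while Vil1 was at -0.21 and Cela1 at 0.13. The bile acid carrier Slc10a2, known from ileum and bile ducts, was at -0.09 on the first lovastatin array and at 1.16 to 1.58 on the other 4 arrays used (1.12, adjusted p = 0.295).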
